A study of Mus musculus with 4 samples.

Results

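Of the 1621 peaks that the authors called for the chromatin protein PHF2 in control mouse muscle, 470 (29.0%, Wilson 95% interval 26.8 to 31.2) lay more than 1 kb from both annotated ends of every protein-coding RefSeq gene. The members were chosen by position alone, with gene ends taken from the RefSeq annotation of GRCm38.p6, the assembly behind the mm10 build that the peaks use. The other 1151 peaks, called gene-end peaks here, lay within 1 kb of such an end. Just outside the limit stood peaks at Mypn (994 bp from an end), Tnik (998 bp) and Ktn1 (999 bp), and just inside it stood peaks at Jarid2 (1004 bp), Spindoc (1004 bp) and Phlpp1 (1008 bp).

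Gastrocnemius, the large muscle of the calf, was taken from male C57BL/6 mice of 4 weeks and profiled by CUT&RUN, which releases the DNA around a protein with a nuclease tethered to an antibody. All mice carried Phf2 flox/flox alleles. The control (Ctrl) mice were Phf2 flox/flox;Acta1 Cre- and the knockout (KO) mice Phf2 flox/flox;Acta1 Cre+, and muscle of both was profiled with an antibody to PHF2 and with control IgG, which binds no particular target. Each of these 4 groups held 1 library, so no test across samples was possible, and every interval below covers counting error in these libraries only. Acta1 encodes the actin of skeletal muscle fibres, so a Cre under its control acts in fibres, and the vessel, nerve, connective tissue and stem cells of whole muscle keep Phf2. In such a bulk sample, fewer cells of a type and less PHF2 per cell cannot be told apart, and peak lists do not measure how much Phf2 was deleted. Read totals are unknown, and the depth behind a peak is given by its summit tags, the whole number of reads at its highest point, recovered from the authors' values.

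PHF2 has a PHD finger, which binds the methylated histone tails found at active promoters, and a JmjC domain of the histone demethylase family. Many genes have several promoters, and those beyond the outermost lie inside the annotated span of the gene, where a peak can be far from the gene's ends and still lie at a start of transcription. Many mammalian promoters are CpG islands, stretches rich in G and C in which the dinucleotide CG has escaped the loss it shows elsewhere in the genome, and they often hold GC boxes, the short motif bound by Sp and Klf factors.

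The sequences below show what lay under the strongest of the members at such internal starts, since the share of members there and their base composition are the main pattern in the set. Each is the 200 bases before a RefSeq transcription start that a member overlaps, read 5′ to 3′ on the gene's strand, with GC boxes (GGGCGG, or CCGCCC on the other strand) in capitals. They come from the RefSeq promoter table of GRCm38.p6 (mm10). The Hivep2 sequence is chr10:13966179-13966378 on the plus strand, the Arid1a sequence chr4:133753986-133754185 on the minus strand, the Sobp sequence chr10:43174531-43174730 on the minus strand, the Ptp4a2 sequence chr4:129820279-129820478 on the plus strand and the Pde4b sequence chr4:102569860-102570059 on the plus strand.
Hivep2: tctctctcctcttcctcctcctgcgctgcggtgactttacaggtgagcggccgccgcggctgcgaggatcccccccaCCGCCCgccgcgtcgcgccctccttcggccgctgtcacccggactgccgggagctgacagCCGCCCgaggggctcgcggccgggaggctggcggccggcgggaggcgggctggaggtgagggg
Arid1a: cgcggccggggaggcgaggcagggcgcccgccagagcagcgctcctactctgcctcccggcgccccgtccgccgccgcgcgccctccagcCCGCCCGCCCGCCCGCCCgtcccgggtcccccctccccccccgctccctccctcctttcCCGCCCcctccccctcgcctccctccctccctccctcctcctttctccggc
Sobp: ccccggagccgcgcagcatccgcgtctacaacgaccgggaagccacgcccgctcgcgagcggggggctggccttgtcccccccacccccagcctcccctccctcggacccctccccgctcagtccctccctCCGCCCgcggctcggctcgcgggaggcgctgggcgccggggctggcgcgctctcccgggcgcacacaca
Ptp4a2: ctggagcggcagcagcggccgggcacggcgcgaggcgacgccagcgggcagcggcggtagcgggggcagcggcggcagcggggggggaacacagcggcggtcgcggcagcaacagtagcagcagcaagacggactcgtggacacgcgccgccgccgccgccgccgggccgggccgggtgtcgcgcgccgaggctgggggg
Pde4b: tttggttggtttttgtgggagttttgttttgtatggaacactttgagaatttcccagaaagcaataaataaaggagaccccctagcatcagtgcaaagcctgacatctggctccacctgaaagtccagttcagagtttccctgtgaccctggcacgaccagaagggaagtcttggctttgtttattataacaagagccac

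The first 4 of these were rich in G and C. Hivep2 had 76.5% G and C with 26 CG dinucleotides and 2 GC boxes, and Arid1a had 82.0% with 25 and 5. Sobp had 79.0% with 27 and 1, and Ptp4a2 had 81.0% with 35 and no GC box. Pde4b stood apart with 44.5% G and C, 1 CG and no GC box, although it lay under the member of highest fold enrichment.

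The members were mostly inside genes. In all, 410 of 470 (87.2%, 83.9 to 89.9) overlapped a protein-coding gene. The other 60, called intergenic here, lay outside protein-coding genes, and some may lie within a non-coding gene. The 410 fell in 348 host genes, of which 297 held 1 member, 51 held 2 or more and 12 held 3 or more, and 6 members lay in a pair of overlapping genes. Merging members within 1 kb of each other left 410 regions, so some neighbouring members are parts of the same region and are not independent. The RefSeq table gives no exons, and exon and intron were not told apart.

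Host genes were 1.59% of the 21883 protein-coding genes and 4.17% of the 4944 genes of 50 kb or more. Their median length was 75113.5 bp, against 16873 bp for genes without a member. The share of genes with a member was 0.492% of genes under 10 kb (39 of 7924), 1.52% at 25 to 50 kb and 6.07% at 200 kb or more (60 of 989). Per megabase more than 1 kb from both ends, genes under 10 kb held 2.31 members and those of 200 kb or more 0.173. The classes between had 0.731 (10 to 25 kb), 0.496, 0.424 and 0.554 (100 to 200 kb), with no steady order. Of the hosts, 94 (27.0%) also had a Ctrl PHF2 peak within 1 kb of an end of their own and 254 had none, against 5.60% of all protein-coding genes with such a peak.

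Members were close to gene-end peaks in height and slightly narrower. The median width was 488.5 bp (95% interval of the median 445 to 508, quartiles 353.5 and 726) against 516 bp (497 to 537) for gene-end peaks. The median fold enrichment at the summit, a ratio over the caller's local background, was 6.345 (6.02 to 6.37) against 6.45 (6.34 to 6.48). Median summit tags were 15 in both sets, with a range of 8 to 37 among members and 8 to 44 among gene-end peaks. The intervals of all of these medians overlapped between the sets. The widest members were at Hivep2 (3976 bp), Irs1 (3451 bp), the insulin receptor substrate gene, and Zeb2 (3146 bp), a zinc finger repressor gene. None of the 470 members overlapped a peak of either IgG library, a count that allows up to 0.638%, and none lay within 1 kb of one. Whether an IgG library served as the control in calling is not stated in the sources used here, and such calling removes regions high in that control.

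**Figure D1:**
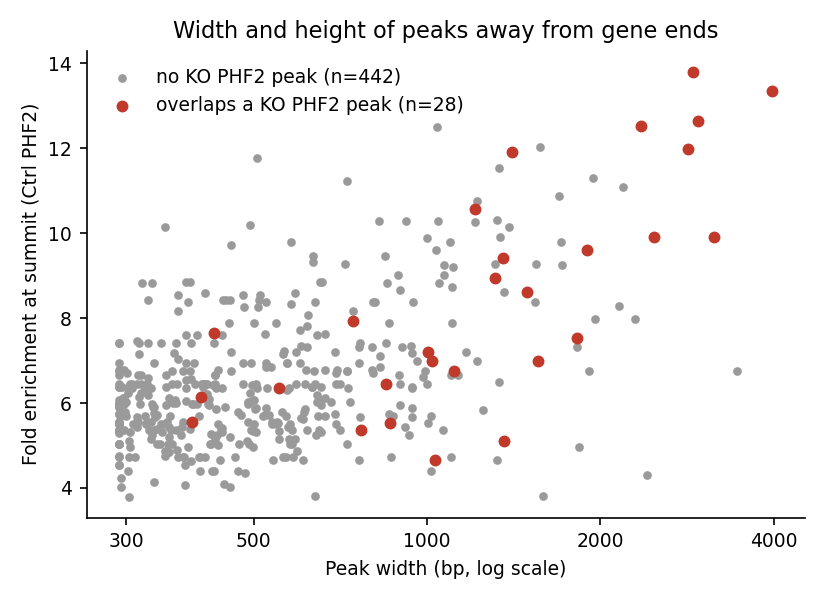
Each point is 1 of the 470 members, with its width in bp on a log axis and its fold enrichment at the summit in Ctrl PHF2. The 28 members that overlap a KO PHF2 peak (red) had a median width of 1333 bp against 466 bp for the other 442 (grey).

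The distance from a member to the nearest gene end had a median of 3931 bp (3248 to 5335) and quartiles of 1640 and 19999 bp. Of the 470, 156 lay within 2 kb, 252 within 5 kb and 314 within 10 kb, while 69 lay beyond 50 kb and 23 beyond 100 kb. The farthest was 514859 bp from any end. Intergenic members were farther out, with a median of 15261 bp (7231 to 28619) against 3412 bp (2843 to 4165) for those inside genes. Part of the set lay beside a gene-end peak. In all, 63 members (13.4%) were within 1 kb of one, 95 (20.2%, 16.8 to 24.1) within 5 kb and 98 within 10 kb. Over the 375 members farther than 5 kb from every gene-end peak, the median fold enrichment was again 6.345 and the median distance to a gene end 6878 bp.

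Within genes the members gathered behind the 5′ end. Strand was known for the hosts of 340 of the 410 inside members, and their summits lay at a median of 15.7% (12.1 to 19.6) of the gene's length from the 5′ end. The first 10% of the gene held 141 of them (41.5%) and the last 10% held 10 (2.94%). Since the rule leaves out 1 kb at each end, each of these stretches makes up 9.42% of the bases of the host genes that a member could occupy. The 5 kb after the 5′ end held 187 summits (55.0%) and the 5 kb before the 3′ end 30 (8.82%), against 3.02% of those bases at each end. These base shares are pooled over the 288 hosts, so long genes weigh most. In short hosts 5 kb is a larger part of the gene, so 3.02% is not the share that even placement within each host gives. The ends can be compared with each other, but an excess at either cannot be read from 3.02%. A summit can count at both ends of a short gene. By distance from the 5′ end, 85 summits lay within 2 kb, 102 at 2 to 5 kb, 49 at 5 to 10 kb, 19 at 10 to 20 kb, 24 at 20 to 50 kb, 24 at 50 to 100 kb and 37 beyond 100 kb. Among the 197 members inside a gene and within 5 kb of its nearer end, 181 (91.9%) were at the 5′ end. For 8 intergenic members with strand known and within 5 kb of a gene, the nearer end was the 5′ end in 5 and the 3′ end in 3.

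**Figure D2:**
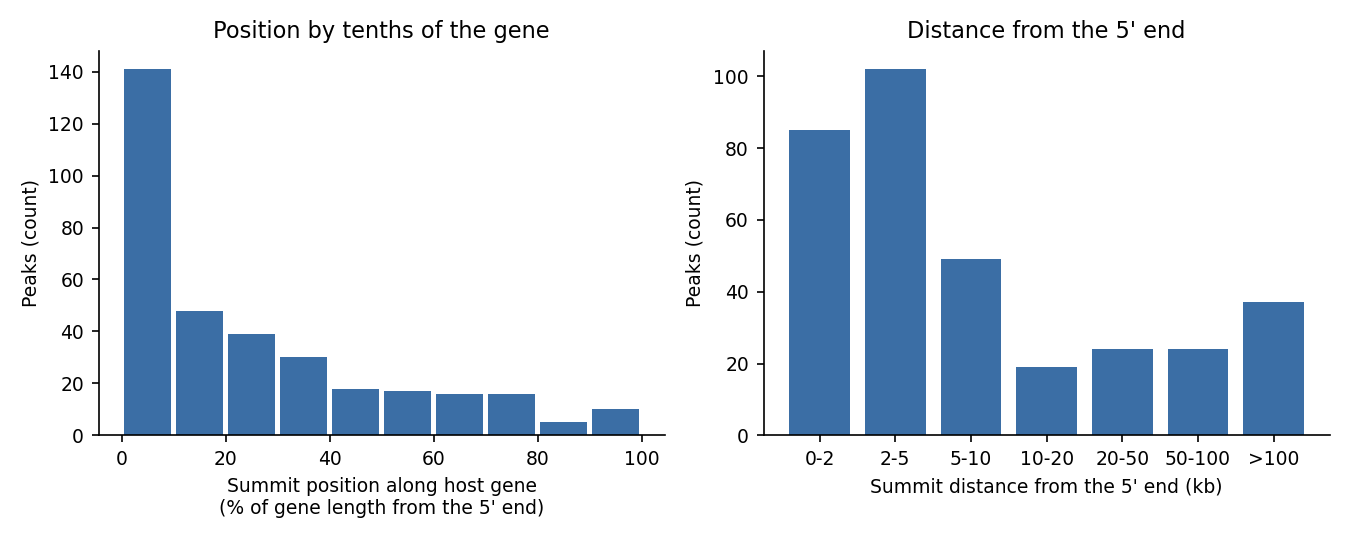
Counts of the 340 inside members with known strand by summit position along the host gene, in 10% steps of its length from the 5′ end (left), and by distance from the 5′ end in kb (right, classes of unequal width). The first 10% of the gene held 141 members and the last 10% held 10, while 37 lay more than 100 kb from the 5′ end.

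Many members lay at starts inside genes. The RefSeq table lists 4050 internal starts, defined here as transcription starts more than 1 kb inside their own protein-coding gene, in 3040 genes. No start on chromosome 18 was used, which left 451 members. Of these, 91 (20.2%, 16.7 to 24.1) overlapped an internal start, 179 (39.7%) lay within 500 bp of one and 195 (43.2%, 38.7 to 47.9) within 1 kb. Some hosts on the other chromosomes also had no listed start, and their members could not match a start of that gene. Strand, which came from the listed starts, was known for the host of 340 of 391 inside members there. Among gene-end peaks 23 of 1114 (2.06%, 1.38 to 3.08) overlapped an internal start, a difference that the rule itself favours, since it places gene-end peaks at the outer starts. Seen from the starts, a Ctrl PHF2 peak of either kind overlapped 3.23% of internal starts (131 of 4050), 2.54% of outer starts of protein-coding genes (437 of 17212) and 0.647% of starts of non-coding genes (75 of 11588).

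Members also lay at internal starts far from gene ends. In the 288 hosts of known strand, windows of 1 kb around internal starts cover 1.45% of the interior bases, and 188 of 340 summits (55.3%, 49.98 to 60.49) fell in them. More than 5 kb from both gene ends these windows cover 0.967% of the bases and held 93 of 148 summits (62.8%, 54.8 to 70.2). More than 10 kb from both ends they cover 0.739% and held 57 of 98 (58.2%), and more than 20 kb from both ends they cover 0.628% and held 40 of 78 (51.3%, 40.4 to 62.1). These sets are nested, so their shares are not independent of each other. The base shares are pooled over genes picked for holding a member, and long genes weigh most in them. They are thus not the shares that even placement within each host would give. A match to a listed start says where the peak lies and not that the start was in use in this muscle.

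The whole set can be split by the annotated feature within 1 kb. An internal start was there for 195 members, an end of a non-coding gene or pseudogene for a further 58, and a start near a gene end for a further 18. On chromosome 18, 19 members could not be placed by starts. The remaining 180 (38.3%) had none of these features listed, 31 of them intergenic, and 117 of the 180 also lay farther than 5 kb from every gene-end peak. Some of the 180, such as those in Mtss1 and Tbx15, lay in genes with no listed start, where an internal start could be missed. Of non-coding genes only the starts and ends were used, so the 180 may include members inside such genes. The medians of fold enrichment had overlapping intervals, with a median fold enrichment of 6.15 at internal starts (5.98 to 6.46), 6.46 at non-coding ends (6.20 to 7.19) and 6.09 with no feature (5.90 to 6.37). Median widths were 500, 525.5 and 440.5 bp in the same order.

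The internal starts under members resembled the outer starts under peaks in composition, and not the more distant internal starts of genes with an internal start near a member. Members overlapped 103 internal starts in 90 genes. Over 300 bases around each start (250 before and 50 after), their median content of G and C was 69.0%, with a median of 30 CG dinucleotides. Their ratio of observed CG to that given by the base content had a median of 0.853 (quartiles 0.706 and 0.984), and 87 of 103 (84.5%) were above 0.6. An internal start lay within 1 kb of a member in 183 genes, a wider set than these 90. In 39 of the 183 genes there were 62 other internal starts, more than 1 kb from a member. Those 62 had a median ratio of 0.322, and 9 of 62 (14.5%) were above 0.6. The 233 internal starts within 1 kb of a member, overlapped ones included, had a median of 0.827. All 4050 internal starts had a median of 0.421. Outer starts under a Ctrl PHF2 peak had 0.852, against 0.603 for all outer starts.

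Across all internal starts, the share overlapped by a member was low where this ratio was low. It was 0.217% (2 of 922, 0.0595 to 0.787) below 0.2 and 0.194% (2 of 1032) from 0.2 to 0.4. It was 1.90% (12 of 630) from 0.4 to 0.6, 3.11% (20 of 644) from 0.6 to 0.8 and 8.15% (67 of 822, 6.47 to 10.2) at 0.8 or above. The highest class stood above each of the others by its interval. Sequence composition can itself change how many fragments a library yields, and its part in these values was not tested.

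**Figure D3:**
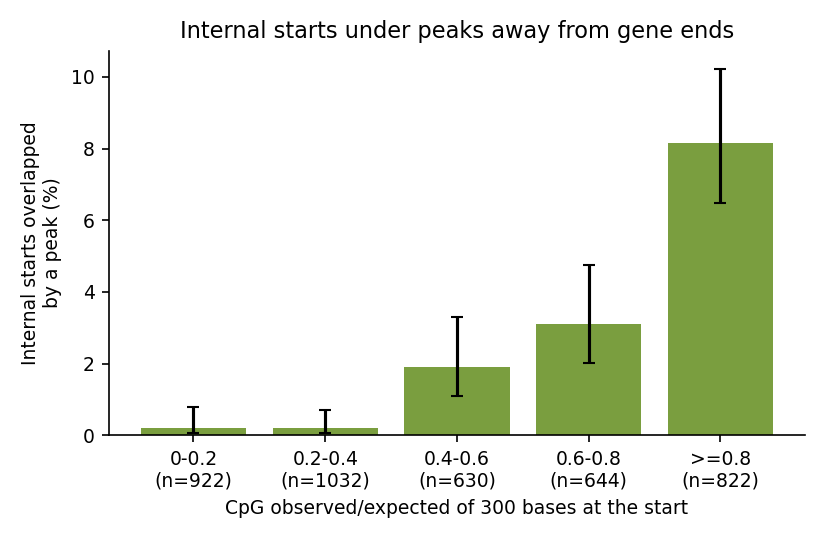
Share of listed internal starts overlapped by a member, in percent, for classes of the CG ratio of the 300 bases at the start. Bars are shares, error bars are Wilson 95% intervals and n is the number of starts. The share was 0.217% in the lowest class and 8.15% in the highest.

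Short motifs were counted in the same 300-base windows on both strands. The GC box GGGCGG was in 75 of 103 windows under members (72.8%, 63.5 to 80.5). It was in 11 of the 62 windows at the other internal starts described above (17.7%, 10.2 to 29.0). Its share was 39.4% over all internal starts and 35.7% over all listed starts. The E-box CANNTG, the site of MyoD-type factors, went the other way, with 51.5% (41.9 to 60.9) under members, 85.5% at the other internal starts and 72.3% of all listed starts. The special E-box CACGTG was in 7.77% under members and 7.15% of all listed starts, and it is also counted as CANNTG. The TEAD motif CATTCC was in 15.5% against 14.7%, the AP-1 motif TGANTCA in 3.88% against 7.81%, and GCATGCG, part of the NRF1 motif, in 4.85% against 3.58%. The forkhead motif TGTTTAC was in none of the 103 windows and in 3.65% of all listed starts. For CACGTG and for the TEAD, AP-1 and NRF1 letters, the intervals under members included the share over all listed starts. For the forkhead motif a count of 0 allows a share of up to 2.91%. These motifs differ in G and C content, and the counts were not adjusted for it.

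The member of highest fold enrichment was in Pde4b (Gene ID 18578), which encodes a phosphodiesterase that breaks down cyclic AMP. The peak covers 102569035 to 102571937 on chromosome 4, with its summit 483422 bp from the 5′ end of a gene of 519944 bp, and overlaps the internal start shown above. Its fold enrichment was 13.8 with 29 tags (exact Poisson interval 19.4 to 41.6). A weaker member of the same gene, from 102572793 to 102574334, had a fold enrichment of 8.37 and 16 tags. The pair was thus far from any gene end and near the distal start of the gene.

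The next member was in Hivep2 (Gene ID 15273), a zinc finger transcription factor gene, on chromosome 10 from 13964312 to 13968287. It had a fold enrichment of 13.3 with 37 tags (26.1 to 51.0), the most in the set, and its summit lay 4757 bp from the 5′ end. The member in Tnrc18 had 12.6 with 35 tags (24.4 to 48.7), 114 bp from an internal start. The member in Nfia, a nuclear factor I gene, had 12.5 with 29 tags and lay 199.9 kb from the 5′ end, at the end of the non-coding gene Gm38709. No listed start of Nfia was near it, the closest being 194785 bp away.

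Several others of the leading 20 were at genes of transcription factors. Tcf4, a partner gene of the MyoD family, had a fold enrichment of 12.5, in a member 93597 bp from the nearest end. Prrx1, a homeobox gene of mesenchyme, had 11.5, and Sox6, a repressor gene of slow fibre programmes, 10.9. The repressor gene Zeb1 had 10.3. Chromatin regulators among them were Arid1a, a subunit gene of the SWI/SNF remodeller (12.0 with 25 tags, 16.2 to 36.9), and Jarid2, a component gene of the Polycomb complex PRC2 (11.1 with 25 tags). Arid1a and Jarid2 also had a gene-end peak within 2 kb of the member, at 1626 and 457 bp, while the nearest to Sox6 was 2822375 bp away.

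The remaining leading hosts covered other functions. Ssh2, a phosphatase gene acting on the actin regulator cofilin, had a fold enrichment of 11.8, in a narrow member of 506 bp that lay 153 bp from an internal start 132123 bp inside the gene. Sobp had 11.3, Ptp4a2, a protein phosphatase gene, 10.8, and Sema6d, a semaphorin gene, 10.6. Rbm24, which encodes a muscle splicing regulator, had 11.2, 214 bp from a gene-end peak. Gnas, an imprinted gene for a G protein subunit with several promoters, had 10.3 at an internal start 45686 bp inside the gene. Arih1, a ubiquitin ligase gene, and Lrrfip1 had 10.3 each at internal starts, and Mtss1 had 10.2 with no listed feature within 1 kb. No start of Mtss1 itself was listed. In all, 12 of the leading 20 members were within 1 kb of an internal start.

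Intergenic members were often at non-coding genes. An end of a non-coding gene or pseudogene was within 1 kb of 28 of 60 (46.7%, 34.6 to 59.1), against 66 of 410 inside members (16.1%, 12.86 to 19.97) and 214 of 1151 gene-end peaks (18.6%). The highest intergenic member, on chromosome 19 from 5800038 to 5801439, had a fold enrichment of 11.9 with 27 tags (17.8 to 39.3). It lay 1233 bp from Malat1, an abundant nuclear non-coding RNA gene. The next lay upstream of Bahcc1, over the start of 2900052L18Rik (9.92 with 29 tags). Those nearest to Chp1 (8.84) and Pdpr (8.55) overlapped starts of the non-coding genes Oip5os1 and 9430091E24Rik, and that nearest to Rab2a (8.84) overlapped the pseudogene or non-coding gene Gm8273. The member nearest to Rab11fip4 (8.58) lay 644 bp from the microRNA gene Mir193a, and that nearest to Kctd15 (8.37) had no annotated feature within 1 kb.

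An intergenic member also overlapped a microRNA, the only case in the set, and it was chosen for mention after its position was seen. On chromosome 10 from 122985701 to 122986461 it covered 24 bp of the hairpin of Mirlet7i, a let-7 gene, with a fold enrichment of 7.31 and 14 tags (7.65 to 23.5). Its mature RNAs from RefSeq are given below with the seed, bases 2 to 8, in capitals, to identify the gene.
mmu-let-7i-5p: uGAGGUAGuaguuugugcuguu
mmu-let-7i-3p: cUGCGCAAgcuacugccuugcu

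The 12 genes with 3 or more members showed clusters. Bcor, a Polycomb-associated corepressor gene on the X chromosome, held 6 of the 10 members on that chromosome, from 55.5% to 64.8% of the way along the gene, with fold enrichments of 5.03 to 8.29. All of them lay 41705 bp or more from an end. Tnrc18 held 4 members between 2.40% and 6.39% of its length, and 1110002E22Rik held 4 between 17.0% and 47.1%. The 3 members of Sox6 lay 6.38 to 8.73 kb from the 5′ end of a gene of 570 kb. The 3 of Sgk1, a kinase gene induced by glucocorticoids and serum, lay at 95.2% to 97.6%, at and beyond the most distal listed starts of that gene. Pde4d, a further cyclic AMP phosphodiesterase gene, held members at 60.4%, 95.9% and 96.0% of its length of 1302 kb. Nfia, Nr2f2 (a nuclear receptor gene), Ecpas, Bahcc1, Rgma and Tcf4 held 3 each. The clusters of Bcor, Nr2f2, Bahcc1 and 1110002E22Rik had no listed internal start of their gene near them, while those of Ecpas and Sgk1 surrounded such starts.

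**Figure D4:**
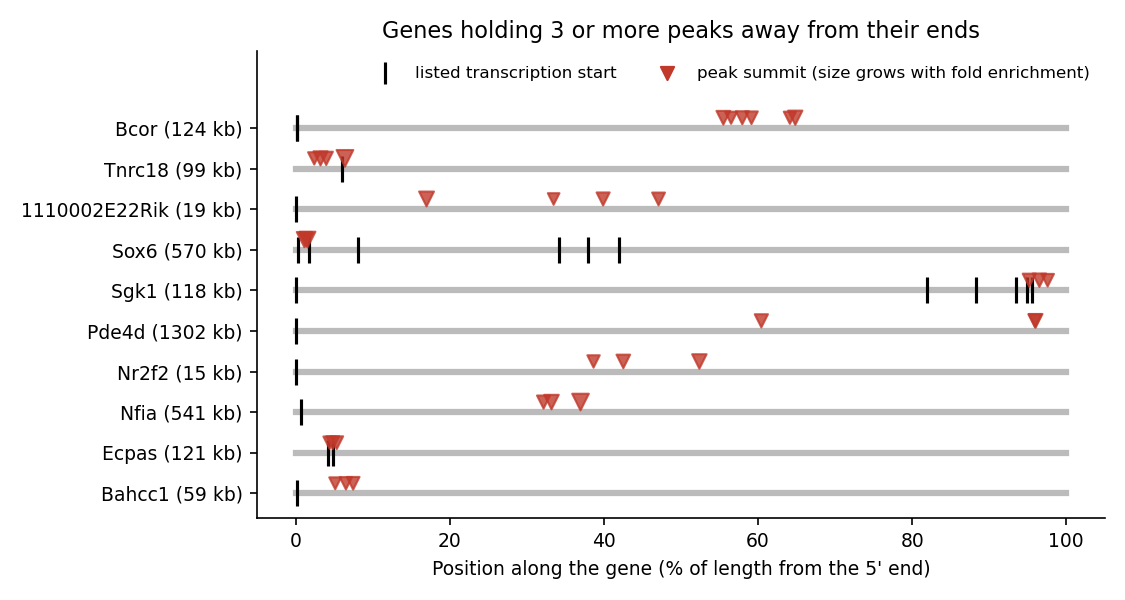
Summits of members (red triangles) and listed starts (black bars) along the 10 genes of known strand that hold 3 or more members, as percent of gene length from the 5′ end, with gene length in kb beside the name. The 6 members of Bcor lie between 55.5% and 64.8%, and the 3 of Sgk1 between 95.2% and 97.6%.

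By gene list, members were in 19 of 56 genes of muscle transcription and splicing regulators (33.9%, 22.9 to 47.0), against the 1.59% of all genes given above. This list is of long genes, with a median of 59.7 kb, and 15 of its 28 genes of 50 kb or more had a member, against 4.17% of all such genes. Beside Nfia, Tcf4, Rbm24, Sox6, Zeb1 and Zeb2 they included Tbx15 (fold enrichment 10.1), Celf2 (8.83), Tead1 (6.94), Mef2d (6.75), Srf (6.66), Mef2c (6.46) and Mef2a (5.55). The MEF2 and SRF proteins drive muscle gene transcription, and CELF, MBNL and RBFOX proteins direct muscle splicing. Some members of this list, such as Nfia, Tcf4, Zeb1 and Zeb2, are also active in other cell types of muscle. Over all 20 lists together, 86 of 749 genes were hosts, so listed genes as a whole held members more often than all genes. The interval of the muscle regulator list lies above that share, which its own 19 hosts help to make up. The intervals of the glycolysis, Notch, nuclear receptor, calcium, chromatin, clock and TGF-beta lists below include that share. Shares above 1.59% thus do not set these lists apart from the other listed genes. All 20 lists were chosen with earlier results of these data known, so the place of the muscle regulator list above the others is no independent result.

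Glycolysis and glycogen genes were hosts in 8 of 39 cases (20.5%, 10.8 to 35.5), against 1.59% of all genes, with a median gene length of 22.9 kb. The member in Ldha, the lactate dehydrogenase gene of fast muscle, had a fold enrichment of 9.59 with 28 tags (18.6 to 40.5), 106 bp from an internal start. Others lay in Ugp2 (6.94), Gapdh (6.41), Aldoa (5.83, at an internal start), Pfkfb3 (5.37 and 5.19), Eno3 (5.30 and 4.72), Hk2 (4.72) and Pfkm (4.40). Notch, Hippo and Wnt genes were hosts in 10 of 51 cases (19.6%, 11.02 to 32.46), led by Amotl1 (9.28), Vgll4 (8.32), Tle3 (7.62) and Fzd7 (7.60). Nuclear receptor genes were hosts in 4 of 22 cases (18.2%, 7.31 to 38.5), namely the glucocorticoid receptor gene Nr3c1 (9.92), Nr2f2 (8.58), Rarb (8.16) and Nr3c2 (5.70).

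Excitation-contraction coupling and calcium genes were hosts in 7 of 47 cases (14.9%, 7.41 to 27.7), against 1.59% of all genes and 4.17% of those of 50 kb or more, with the calcium-dependent kinase gene Camk2d (8.62), Srl (7.16), the junctophilin gene Jph2 (6.74) and the muscle chloride channel gene Clcn1 (6.46) leading. Chromatin modifiers were hosts in 11 of 76 cases (14.5%, 8.28 to 24.1), with Hdac7 (7.41), Tet3 (6.75) and Dnmt3a (6.67) after Arid1a, and 7 of these 11 members lay within 1 kb of an internal start. The circadian clock list had 3 of 24 (12.5%, 4.34 to 31.0), with Rora at 9.24, Bhlhe41 at 6.54 and Nfil3 at 5.73. TGF-beta, BMP and myostatin signalling had 4 of 43 (9.30%, 3.68 to 21.6), with Tgfb2 at 9.47, Smad7 at 6.99, Tgif1 at 6.49 and Bmp4 at 6.46. Sarcomere genes were hosts in 5 of 63 cases (7.94%, 3.44 to 17.3), an interval that includes the 4.17% of long genes, though the median length in this list was 22.6 kb. These were Myl1 (8.37), whose member lay over the internal start of this light chain gene, Tpm1 (6.02), Myom1 (5.66), Ttn (5.55) and Tmod4 (5.05).

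Apart from the endothelial markers, the other lists had few hosts, at shares closer to the 1.59% of all genes and the 4.17% of genes of 50 kb or more. The dystrophin complex and neuromuscular junction had 3 of 42 (7.14%, 2.46 to 19.0, median gene length 56.2 kb), namely Dst, Dag1 and Utrn. Insulin, IGF and mTOR signalling had 3 of 46 (6.52%, 2.24 to 17.5, 81.9 kb), namely Sgk1, Irs1 and Phlpp1. AP-1 and immediate early genes, with a median length of 5.58 kb, had 2 of 36 (5.56%, 1.54 to 18.1), Btg1 and Zfp36l1. Ubiquitin ligases, atrophy and autophagy had 2 of 47 (4.26%, 1.18 to 14.2), Trim63 and Nedd4, and fatty acid and mitochondrial regulators 2 of 51 (3.92%, 1.08 to 13.2), Rxra and Ppargc1a. The intervals of the dystrophin, insulin, ubiquitin and fatty acid lists all include the 4.17% of long genes. The immediate early list has 0 genes of 50 kb or more, so that share is no match for it. Its interval lies above the 0.492% of genes under 10 kb, though it rests on 2 hosts. Of the lists for other cell types of muscle, endothelial markers had 3 of 20 (15%, 5.24 to 36.0). This interval lies above the 4.17% of long genes, though it rests on 3 hosts. The members were in Ptprb (6.46), Mecom (5.98) and Erg (5.98). None of these 3 members, of 12, 11 and 11 tags, overlapped a KO PHF2 peak. Of all 125 members with 8 to 12 tags only 1 did, so their lack of a KO peak says little about endothelial sites. Satellite cell markers (18 genes), fibro-adipogenic and tenocyte markers (19), immune markers (20) and pericyte, smooth muscle and Schwann markers (17) had 0. A list of 20 long neuronal genes, with a median length of 1221 kb, had 0 as well, which allows a share of up to 15%. Peak lists give no expression, so the tissue was not checked by its markers. The part of other cell types in the members was not tested.

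In the KO PHF2 library 28 of the 470 members (5.96%, 4.15 to 8.47) overlapped a peak by at least 1 bp, against 7.03% of all Ctrl PHF2 peaks. Gene-end peaks had 86 of 1151 (7.47%, 6.09 to 9.14), and the difference of -1.51 percentage points had an interval of -3.97 to 1.36, which includes 0. Another 442 members had no KO peak, which means that none was called there, since KO tags at those sites were not measured. The share was 1.49% with a reciprocal overlap of at least 50%, and 10.2% when a KO peak within 1 kb counted. From the other side, 57 of the 161 KO PHF2 peaks (35.4%, 28.4 to 43.1) lay more than 1 kb from every gene end, against 29.0% of the Ctrl list, a difference of 6.41 points with an interval of -0.915 to 14.4.

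Members with a KO peak were the wide and deep ones. Their median width was 1333 bp (1022 to 1561) against 466 bp (433 to 498) for the others, their median fold enrichment 7.78 (6.99 to 9.59) against 6.17 (5.98 to 6.37), and their median summit tags 23 (20 to 27) against 14 (14 to 15). The intervals did not overlap for any of these 3 medians. Of members with 8 to 12 tags 1 of 125 had a KO peak, with 13 to 15 tags 2 of 148, with 16 to 20 tags 8 of 132 and with 21 or more 17 of 65 (26.2%, 17.0 to 37.9). Gene-end peaks of 21 or more tags had 39 of 204 (19.1%, 14.3 to 25.1), and those of 8 to 12 tags had 4 of 224. By width, 3 of 246 members under 500 bp, 5 of 156 from 500 to 999 bp and 20 of 68 from 1000 bp (29.4%, 19.9 to 41.1) had a KO peak, and gene-end peaks of that last class had 52 of 189 (27.5%). Within classes of tags or width the intervals of members and gene-end peaks overlapped.

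Of the 28 shared members, 23 had fewer summit tags in KO than in Ctrl, 2 had equal numbers and 3 had more. The median ratio of KO to Ctrl tags was 0.691 (0.571 to 0.8), against 0.750 (0.700 to 0.812) at the 86 shared gene-end peaks. These ratios are not corrected for the total reads of the libraries, which are unknown, and the sites had to be called in both, so they do not measure the loss of PHF2. Hivep2 had 37 tags in Ctrl and 14 (7.65 to 23.5) in KO, the only member whose intervals lay apart, over 3 KO peaks that covered 42.1% of it. Its summits lay 1474 bp apart in the 2 libraries, so these tags were read at different places of a region of 3976 bp. Pde4b had 29 and 13, Nfia 29 and 12, Zeb2 29 and 14, and Nr3c1 29 and 14. For each of these the KO value was below the Ctrl value with intervals that overlapped.

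A smaller difference was seen at Arid1a (25 and 20), Camk2d (25 and 20), Ptprg, a receptor phosphatase gene (22 and 20), and both members of the zinc finger gene Zfp608 (27 and 22, 18 and 13). Tnrc18 had 35 and 19, Sema6d 31 and 16, Ubtf, a factor gene of ribosomal RNA transcription, 28 and 16, the member near Malat1 27 and 19, Baz2b 26 and 13 and Aopep 21 and 12. Pdgfb, a growth factor gene, had 20 and 16, and Tmcc3 20 and 15. The members with more tags in KO were at Efnb2, an ephrin gene (16 and 25), Btg1 (16 and 20) and Sema4c (14 and 18), all with overlapping intervals. The summits compared were also far apart at Arid1a (980 bp), Btg1 (925 bp) and Pdgfb (748 bp, with 3 bp of overlap). The same held for Baz2b (653 bp), Ywhaz (613 bp, 20 and 13 tags), Nr3c1 (517 bp) and Sema4c (473 bp, with 12 bp of overlap). Those with equal tags were at Cd93, a cell surface receptor gene (11 in each), and Flrt2 (15 in each). Of the shared members, 13 were within 1 kb of an internal start, 10 had no listed feature, 2 were at non-coding ends and 3 were on chromosome 18.

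**Figure D5:**
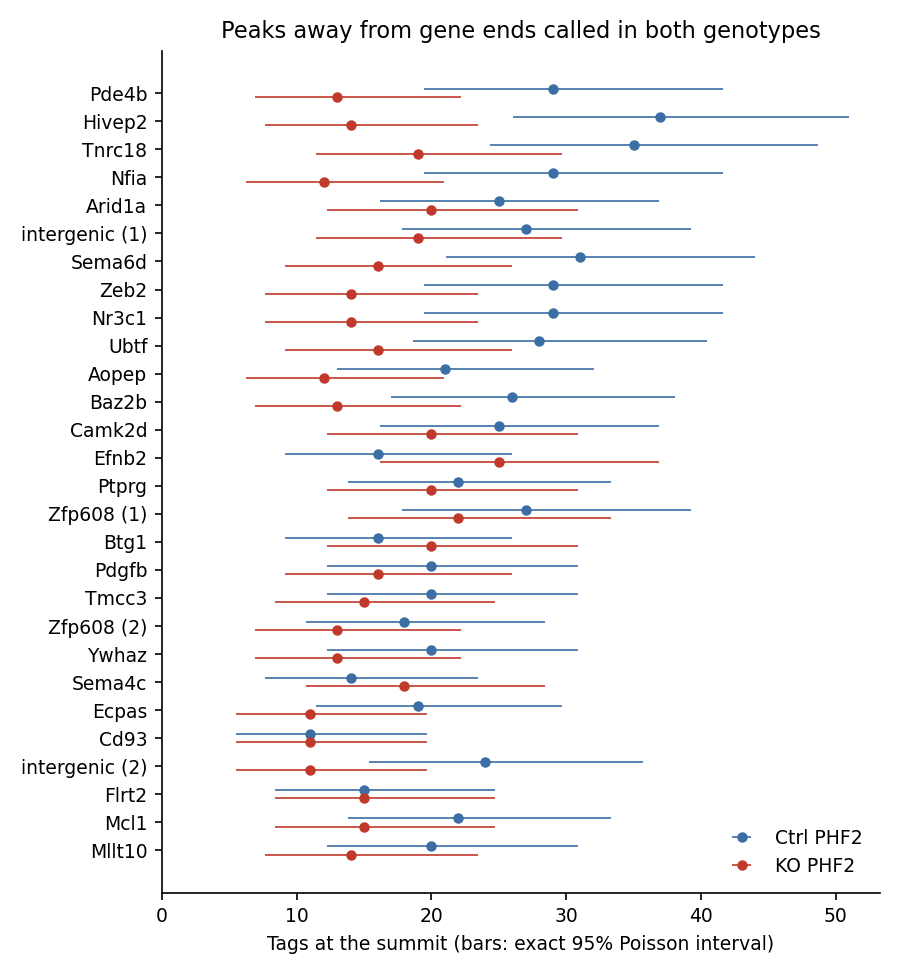
Tags at the summit in Ctrl PHF2 (blue) and KO PHF2 (red) for the 28 members that overlap a KO PHF2 peak, ordered by fold enrichment in Ctrl and named by host gene or as intergenic, with exact Poisson 95% intervals as bars. The KO value was lower in 23, equal in 2 and higher in 3, and the intervals lay apart for Hivep2 alone.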

How the data were processed

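Each library's peak list was deposited by the authors in the narrowPeak layout. The submitters' processing notes name Bowtie2, MACS2 and mm10. What versions, settings, duplicate handling and control library they used is not given in the sources used here. The deposited score was not used. Per the layout, the authors' fold enrichment is the ratio of summit to local background, the authors' -log10 p and -log10 q test it, and the deposited summit offset gives the summit. These values were used within a list only.

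Summit tags were solved from the authors' fold and -log10 p under MACS2's formulas. A single factor gave whole numbers (tolerance 0.01) for 100% of 309 value pairs in Ctrl and of 84 in KO, against 39.2% and 41.7% for the best other factor. The method was tested on simulated data.

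Ends of 21883 protein-coding genes came from the RefSeq table of GRCm38.p6. Strand (17491 genes) and 32850 starts with 300-base windows came from the RefSeq promoter table, in which starts on chromosome 18 are not analysed here. No genome was used, so the planned sequence at summits was not analysed and motifs were sought in those windows. An overlap of 1 bp or more counted, found in Python without bedtools. Shares carry Wilson 95% intervals, differences Newcombe intervals, tags exact Poisson intervals, and medians intervals from order statistics. For shares of 0 the limit is 3 counts. PCR copies may be among the tags.

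The members and the 20 gene lists were chosen with earlier results of these data known. Named genes were the hosts of the 20 highest inside members by fold, the genes nearest to the 8 highest intergenic members, genes with 3 or more members, up to 20 members with a KO peak, up to 4 hosts per list, the 3 peaks on each side of the 1 kb limit and the 3 widest members. Some genes that this rule gives are left out of the text. Further hosts in the lists, other shared members, Mirlet7i and the second Pde4b member were chosen after their values were seen. The alternatives tried were other distance limits, all RefSeq genes, a stricter q, the stronger 50% of peaks, members apart from gene-end peaks, other overlap rules and merged peaks. Other windows around starts, non-coding ends and IgG peaks were chosen once the data had been seen. The tools were Python (3.11.15) with the packages NumPy (2.4.6) and SciPy (1.17.1), tables in pandas (2.3.3), and figures in matplotlib (3.10.9).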

Additional observations from a re-analysis of the deposited data

How the results depend on the processing

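No paired analysis was possible because there was only 1 library in each of the groups, so leaving out a library was not possible either. Of 53 alternatives, 32 stayed within the counting error or limit of the reported value and 21 moved. A limit of 5 kb left 218 members, 79.8% of them inside a gene, in 139 hosts. Their median distance to a gene end was 26204.5 bp, their median position 36.96% along the gene, and 3.67% lay within 5 kb of a gene-end peak. At 2 kb there were 211 hosts, with 9741 bp, 24.2% and 12.1% for the same measures. These moves follow from the limits. Over 5 kb from gene-end peaks the median distance was 6878 bp and the median position 21.9%. With ends of all RefSeq genes left out, 95.5% were inside a RefSeq gene of any kind. The median fold enrichment was 6.46 at a -log10 q of at least 3 and 7.335 in the upper 50% of the Ctrl list. The share with a KO peak was 3.62% with the Ctrl summit inside it, 1.49% with 50% reciprocal overlap and 10.2% within 1 kb. The share at an internal start was 39.7% within 500 bp and 43.2% within 1 kb, and that at a non-coding gene end 14.9% within 500 bp. Members had a median of 15 summit tags, and KO tags at sites without a KO peak were not measured.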

Other observations

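The KO PHF2 list held 57 peaks more than 1 kb from every gene end, and 40 of them overlapped a Ctrl PHF2 peak. The other 17 (29.8%, Wilson interval 19.5 to 42.7) did not, against 24.2% of all 161 KO PHF2 peaks. The highest of these lay in Qk, which encodes an RNA-binding protein, 1184 bp from a gene end, where fold enrichment was 9.36 and the summit held 19 tags (11.4 to 29.7, exact Poisson). Next were peaks in Cd47, a cell surface receptor gene (8.32 with 18 tags), and the semaphorin genes Sema6a (7.18 with 16 tags) and Sema6d (7.09 with 14 tags). The Sema6d peak, at 124611237 to 124611708 on chromosome 2, lay close to a member at 124609768 to 124610978 that has a KO peak of its own. Further peaks lay in Epas1 (6.63) and Ets1 (5.28), transcription factor genes, and in Socs2 (5.68), an inhibitor gene of cytokine signalling. Ctrl tags at these 17 sites were not measured. These peaks were chosen for mention after their values were seen.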
